A study of Homo sapiens with 2 samples.

Results

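The genes described here encode the MHC class I antigen presentation machinery: the heavy chains HLA-B, HLA-C, HLA-E and HLA-F, the light chain B2M, the peptide transporter subunits TAP1 and TAP2, and the immunoproteasome subunits PSMB8 and PSMB9. They are 9 of the 33694 genes counted in both libraries, and all 9 were present by name in each count matrix. The set was chosen because HLA-C was much lower in crest cells at the later stage, so the difference in HLA-C between the stages is a description of why it was picked and supports nothing further.

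Cells came from H9, an established human embryonic stem cell line, differentiated into enteric neural crest cells (ENCCs), the precursors of the neurons and glia of the gut. The day 10 library (n = 1) was made from adherent cultures on Geltrex, which had received BMP4, SB431542 and CHIR 99021, then SB431542 and CHIR 99021, and then the same agents with retinoic acid. The day 15 library (n = 1) was made from enteric crestospheres, free-floating spheres formed after the monolayer was detached on day 12 and the cells were moved to a medium with FGF2, CHIR 99021 and N2 and B27 supplements. Each library pooled 2 biological repeats that the deposited cell labels do not separate, so neither stage has a replicate, no test was possible, and stage, culture format, medium and library cannot be told apart.

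The day 10 library held 9627 cells and 70488169 unique molecular identifiers (UMIs, one per captured transcript), and the day 15 library 6320 cells and 84976253 UMIs, with medians of 6713 and 11770.5 UMIs per cell. Of these cells the authors kept 7295 and 5336, including 4921 and 4934 ENCCs. The libraries shared 102 cell barcodes. Of the cells typed as ENCCs, 256 at day 10 and 27 at day 15 carry the deposited subtype label Non-NC, and HLA-C, B2M and PSMB8 at day 10 are given with and without them. The ENCC markers SOX10, FOXD3, ERBB3, TFAP2B and PAX3 were present in ENCCs of both stages. SOX10 was at 120 counts per 1000000 UMIs at day 10 and 103 at day 15, FOXD3 at 18.4 and 23.1, and ERBB3 at 68.8 and 107. TFAP2B was at 425 and 152 and PAX3 at 65.0 and 29.5, each at least 2-fold lower at day 15. The highest of 6 leukocyte markers in ENCCs was CD14 at 0.108, and the defining marker PTPRC was at 0. Levels below are counts per 1000000 UMIs of the same cells (CPM), with exact 95% Poisson intervals in brackets, and ratios carry exact conditional intervals. All intervals cover counting error only.

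MHC class I molecules display short peptides from inside the cell on its surface, where cytotoxic T cells and natural killer cells read them. Proteasomes cut proteins into peptides, and the immunoproteasome is a variant with interferon-inducible catalytic subunits, including PSMB8 and PSMB9. The TAP1 and TAP2 heterodimer carries the peptides into the endoplasmic reticulum, where they are loaded onto a heavy chain bound to B2M. Pluripotent cells and many early embryonic cells are known for low class I levels, and interferon-γ raises most genes of the pathway.

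HLA-C was the member that differed most between ENCCs of the stages. This classical heavy chain, a main ligand of killer cell immunoglobulin-like receptors, had 2254 UMIs in day 10 ENCCs, or 61.0 CPM (58.5 to 63.6), and 226 UMIs in day 15 ENCCs, or 4.05 CPM (3.54 to 4.61). The level was thus 15.1-fold lower (13.1 to 17.4), a log2 ratio of -3.91, and -3.84 without the Non-NC cells. Ordered from the lowest ratio, HLA-C was at position 51 of the 9257 genes with at least 5 CPM in ENCCs of one stage, between HOXB2 at position 50 and WFIKKN1 at position 52. After each cell was thinned to 3000 UMIs, a UMI of HLA-C was found in 15.4% of day 10 ENCCs (exact Clopper-Pearson interval 14.4 to 16.5) and in 1.13% of day 15 ENCCs (0.858 to 1.47). Without thinning, the shares were 32.2% and 3.85%.

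HLA-B, the neighbouring classical heavy chain gene, had 328 UMIs at day 10, or 8.88 CPM (7.94 to 9.89), and 140 UMIs at day 15, or 2.51 CPM (2.11 to 2.96). It was 3.54-fold lower at day 15 (2.90 to 4.35). The log2 ratio of HLA-B was -1.82 (-2.12 to -1.53), and its interval did not reach that of HLA-C (-4.12 to -3.72).

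HLA-E, a non-classical heavy chain whose product presents leader peptides of other class I chains to receptors on natural killer cells, had 992 UMIs or 26.8 CPM (25.2 to 28.6) at day 10. At day 15 it had 1269 UMIs or 22.7 CPM (21.5 to 24.0), 1.18-fold lower (1.09 to 1.28). HLA-F had 0 UMIs in day 10 ENCCs and 2 in day 15 ENCCs, so no fold can be given, and in the whole libraries it had 3 UMIs at each stage.

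B2M, the light chain shared by class I molecules, was the most abundant of the 9 genes at both stages. It had 5453 UMIs or 148 CPM (144 to 152) in day 10 ENCCs and 5847 UMIs or 105 CPM (102 to 107) in day 15 ENCCs, 1.41-fold lower (1.36 to 1.46). A UMI was found in 34.1% (32.8 to 35.5) of day 10 ENCCs thinned to 3000 UMIs and in 25.2% (24.0 to 26.4) of day 15 ENCCs.

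**Figure D1:**
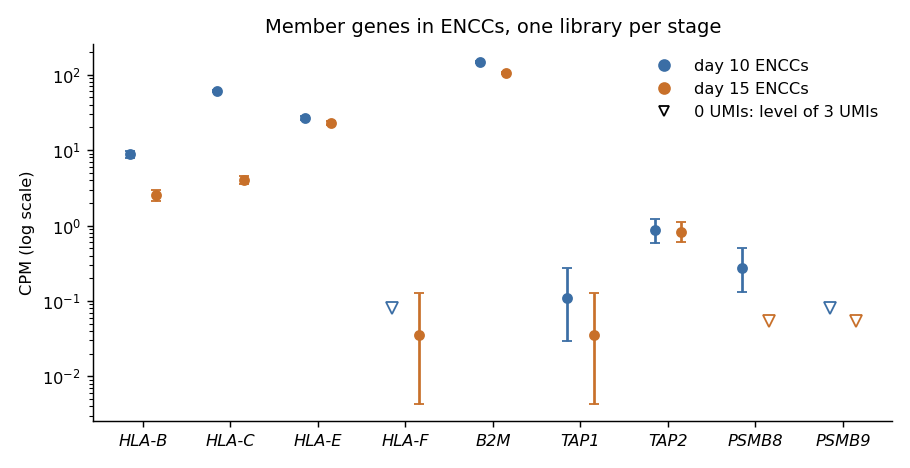
Levels of the 9 genes in ENCCs of the day 10 library (blue) and the day 15 library (orange), in CPM on a log axis. Points are single libraries, bars are exact 95% Poisson intervals for counting error, and open triangles mark the level of 3 UMIs where none was counted. HLA-C is at 61.0 and 4.05, while HLA-E and B2M stay within 1.5-fold. TAP1, TAP2, PSMB8, PSMB9 and HLA-F lie below 1 at both stages.

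The makeup of the heavy chain transcripts also differed. Among UMIs of HLA-B, HLA-C, HLA-E and HLA-F in ENCCs, HLA-C made up 63.1% (61.5 to 64.7) at day 10 and 13.8% (12.2 to 15.6) at day 15. HLA-E made up 27.8% (26.3 to 29.3) and 77.5% (75.4 to 79.5), and HLA-B 9.18% (8.25 to 10.2) and 8.55% (7.24 to 10.0). HLA-C was thus the main transcript among these heavy chains at day 10 and HLA-E at day 15. The number of B2M UMIs per UMI of these heavy chains was 1.53 at day 10 and 3.57 at day 15.

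The other members were near the limit of detection in ENCCs. TAP2 had 32 UMIs or 0.866 CPM (0.592 to 1.22) at day 10 and 46 UMIs or 0.824 CPM (0.603 to 1.10) at day 15, and the interval of its fold, 0.648 to 1.69, included no difference. TAP1 had 4 UMIs at day 10 and 2 at day 15. PSMB8 had 10 UMIs at day 10, each in a different cell, and 0 at day 15. Taking a count of 0 to allow up to 3 UMIs, a limit used wherever a gene had none, the PSMB8 level there was at most 0.0537 CPM. PSMB9 had 0 UMIs in ENCCs of both stages, with a limit of 0.0812 CPM at day 10.

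Of the 9 genes, 4 reached 5 CPM in ENCCs of one stage, and 2 of these 4, HLA-B and HLA-C, were at least 2-fold lower at day 15. Among all 9257 genes at that level, 7.18% were at least 2-fold lower and 9.17% at least 2-fold higher. The median log2 ratio was -1.16 over the 4 genes and -0.15 over all 9257. HLA-C was chosen from this contrast, and HLA-B and HLA-C reached 5 CPM at day 10 alone, so nothing is read from the count.

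**Figure D2:**
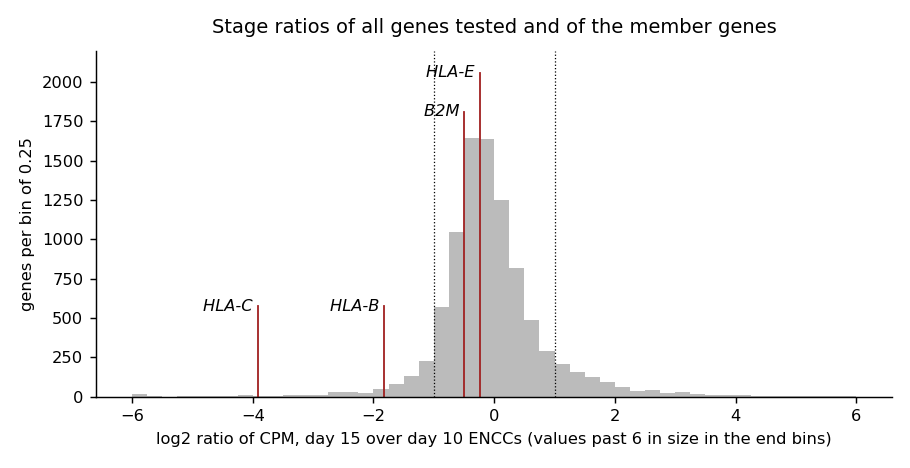
Histogram of the log2 ratio of CPM, day 15 over day 10 ENCCs, for the 9257 genes with at least 5 CPM in one stage (grey, bins of 0.25), with the 4 member genes that reached this level marked in red. Dotted lines mark 2-fold differences. HLA-C at -3.91 lies far out in the lower tail and HLA-B at -1.82 beyond the 2-fold line, while B2M at -0.50 and HLA-E at -0.24 lie in the main body.

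HLA-C and HLA-B lie side by side on chromosome 6, on the minus strand. In GENCODE 29 on GRCh38, HLA-C spans 31268749 to 31272130 and HLA-B spans 31269491 to 31357188, and a long annotated transcript model of HLA-B runs into HLA-C on the same strand. Reads of the class I heavy chain genes can also match more than 1 of them, and how such reads were counted is not given in the sources used here. The split of counts between HLA-B and HLA-C is uncertain for these reasons. B2M spans 44711487 to 44718877 of chromosome 15 on the plus strand and overlaps no other annotated gene.

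Promoters of class I genes are known to carry an enhancer bound by NF-κB, an interferon-stimulated response element (ISRE) and an SXY module that includes a CCAAT box. The RefSeq promoter sequences below (GRCh38.p14) are shown because HLA-C and HLA-B differed in the size of their ratios and B2M belongs to the same pathway but stands on another chromosome. Each runs 5′ to 3′ on the strand of the gene, from 200 to 41 bases before the RefSeq transcript start, and comes from the reference assembly and not from H9. Capitals mark matches to GGGGATTC, the left part of a κB-like site, to CCAAT or its reverse complement ATTGG, and to the ISRE core, searched as GAAA followed by another GAAA after a gap of any 2 bases, on both strands.
HLA-C (chr6:31272133-31272292, minus strand): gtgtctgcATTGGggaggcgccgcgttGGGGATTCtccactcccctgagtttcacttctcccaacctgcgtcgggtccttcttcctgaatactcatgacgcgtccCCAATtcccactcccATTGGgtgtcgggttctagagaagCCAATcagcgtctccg
HLA-B (chr6:31357220-31357379, minus strand): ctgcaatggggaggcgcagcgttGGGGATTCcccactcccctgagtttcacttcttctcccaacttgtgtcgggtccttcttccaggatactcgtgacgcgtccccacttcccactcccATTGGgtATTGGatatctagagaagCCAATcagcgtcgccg
B2M (chr15:44711317-44711476, plus strand): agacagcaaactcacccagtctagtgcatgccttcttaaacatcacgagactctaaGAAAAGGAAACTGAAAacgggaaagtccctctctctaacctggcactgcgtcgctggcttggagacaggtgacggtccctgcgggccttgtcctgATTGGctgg

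The HLA-C and HLA-B promoters both held GGGGATTC, which was found on either strand in 0.772% of the 35116 RefSeq promoter windows of 250 bases. Over the 11 letters starting there, HLA-B read GGGGATTCCCC and HLA-C differed from it by 1 substitution, C9T, counted from 1 at the first G with the base of HLA-B first. The 11-letter HLA-B site was found in 0.0313% of windows. Within 250 bases of the start, the CCAAT box was matched at 4 places in HLA-C, 3 in HLA-B and 1 in B2M, against at least 1 match in 32.0% of all windows.

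The ISRE core was matched at 2 overlapping places in B2M, which share letters in the stretch above, at 2 in TAP1, at 1 in TAP2 and at 1 in HLA-F, against 3.02% of all windows with a match. No match to these letters was found in the windows of HLA-B, HLA-C, PSMB8 and PSMB9. The search allowed no mismatch, so a window without a match can still hold a variant of the element. RefSeq promoters were matched for 8 of the 9 genes, all but HLA-E. The TAP1 and PSMB9 starts face away from each other 488 bases apart (positions 32853704 and 32854192 of chromosome 6).

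Levels also differed between the cell types of the day 10 library, in which the authors named cranial placode (CP, 324 cells), neuro-epithelial progenitor (NEP, 1811 cells) and non-neural ectoderm (NNE, 239 cells) clusters beside the ENCCs. These clusters were made from the same cells and genes, so their levels are given as descriptions. HLA-C was ordered as ENCC at 61.0 CPM, CP at 86.1 (75.0 to 98.4), NEP at 125 (119 to 131) and NNE at 233 (212 to 257), and no intervals of neighbours in this order overlapped. NNE cells had 3.83 times the ENCC level of HLA-C (3.44 to 4.24).

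B2M had another order at day 10. It was lowest in CP at 112 CPM (99.7 to 126), followed by ENCCs at 148 and NNE at 167 (149 to 187), whose intervals overlapped, and highest in NEP at 250 (241 to 258). HLA-B was also highest in NEP, at 22.9 CPM (20.5 to 25.6), 2.58 times the ENCC level (2.21 to 3.02). In NNE it was at 9.75 CPM (5.78 to 15.4), an interval that overlapped that of ENCCs. HLA-E was at 29.9 CPM (23.5 to 37.5) in CP, 40.8 (37.5 to 44.3) in NEP and 51.5 (41.6 to 62.9) in NNE, and the intervals of NEP and NNE overlapped, as did those of ENCCs and CP.

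The immunoproteasome subunit PSMB8 was concentrated in the NNE cluster, which also carried EPCAM, CDH1, KRT19 and KRT8, its epithelial markers. The 239 NNE cells held 41 PSMB8 UMIs in 35 cells, which is 64.1% of the PSMB8 UMIs of all kept day 10 cells. The level was 22.2 CPM (15.9 to 30.1) in NNE, 0.926 (0.493 to 1.58) in NEP, 0.271 (0.130 to 0.498) in ENCCs and 0 of 2507282 UMIs in CP, which allows up to 1.20 CPM. ENCCs thus had 1.22% of the NNE level of PSMB8 (0.544 to 2.47), and they had 0.373% to 2.58% of the NNE levels of the 4 epithelial markers. The Non-NC cells held 4 of the 10 PSMB8 UMIs of ENCCs and 428 of the 567 KRT19 UMIs. Without them, the ENCC level was 0.779% of that in NNE for PSMB8 (0.270 to 1.84) and 0.327% to 1.34% for the epithelial markers. With or without these cells, a PSMB8 level in this range is not told apart from free RNA in the droplets.

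TAP1 followed PSMB8. It had 32 UMIs in 28 NNE cells, or 17.3 CPM (11.9 to 24.5), 33 UMIs in NEP, or 2.35 CPM (1.62 to 3.30), and 4 UMIs in ENCCs, or 0.108 CPM (0.0295 to 0.277), of which 3 were in Non-NC cells. NNE and NEP together held 65 of the 69 TAP1 UMIs of kept cells. PSMB9 had 3 UMIs in NNE, 4 in NEP and 0 in ENCCs and CP. TAP2 did not share the pattern at this depth, with 4 UMIs in NNE, or 2.17 CPM (0.590 to 5.55), and an interval that overlapped that of ENCCs. At 26.1% of the NNE level for HLA-C and 88.5% for B2M, ENCCs were far above the share seen for the epithelial markers. The part of free RNA in these levels was not tested.

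**Figure D3:**
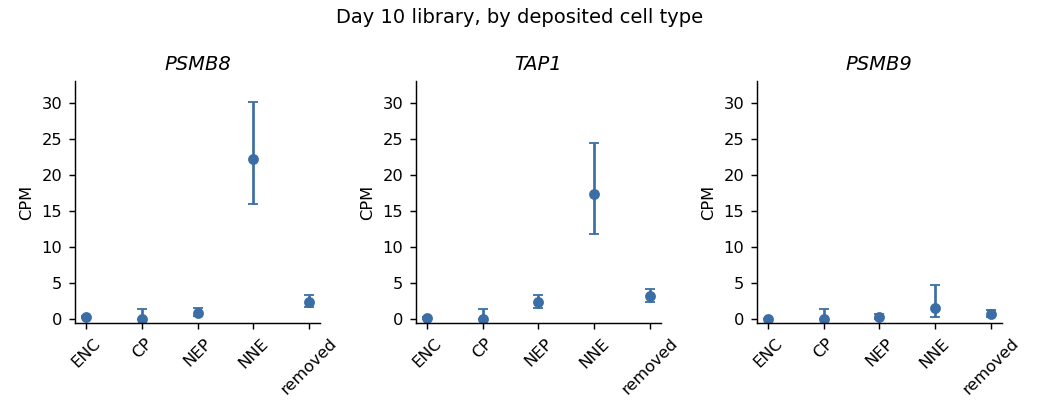
Levels of PSMB8, TAP1 and PSMB9 in CPM in the 4 cell types of the day 10 library and in the cells that the authors removed. Points are sums over the cells of a class and bars exact 95% Poisson intervals. NNE stands above the other classes for PSMB8 at 22.2 and TAP1 at 17.3.

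Of HLA-B, HLA-C, HLA-E and B2M, which reached 5 CPM in day 10 ENCCs, 0 were 2-fold different from ENCCs in CP, HLA-B and HLA-C were at least 2-fold higher in NEP, and HLA-C was in NNE. The share of all genes at least 2-fold higher was 7.32% in CP, 15.5% in NEP and 16.4% in NNE. The shares at least 2-fold lower were 3.17%, 3.29% and 6.46%, with 0 of these members in each. TAP1 and PSMB8 reached 5 CPM in NNE alone and are left out of these counts, since a gene that passes through the class where it is high had to differ. The shares of all genes cover genes at 5 CPM or more in either class. They still include genes that passed in this way, so the filters are not matched.

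At day 15 the cells outside the ENCCs were few, with 208 in CP1, 43 in CP2, 47 mesenchymal cells (Mes) and 104 in NEP, and the day 15 NEP cluster also carried KRT19 at 168 CPM and KRT8 at 341. HLA-C was higher in CP1 than in ENCCs, at 19.7 CPM (14.5 to 26.2), 4.86-fold (3.47 to 6.68), and higher again in NEP at 46.2 CPM (34.6 to 60.4). In CP2 it was at 29.9 CPM (15.4 to 52.1), and in Mes at 7.13 (1.94 to 18.3), an interval that overlapped that of ENCCs. The ENCCs thus had the lowest value of HLA-C among the 5 types, although the interval of Mes overlapped theirs.

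B2M ran the other way in CP1. It was at 22.6 CPM (17.0 to 29.5) there, 4.63-fold lower than in ENCCs (3.54 to 6.17), and at 44.8 CPM (26.5 to 70.8) in CP2, while Mes at 116 CPM (89.5 to 148) overlapped ENCCs and NEP reached 310 CPM (279 to 344). HLA-E was at 11.3 CPM (7.45 to 16.4) in CP1 and 48.8 (36.9 to 63.4) in NEP, and HLA-B at 6.28 (3.51 to 10.4) in CP1 and 37.5 (27.1 to 50.5) in NEP. B2M and HLA-E were the members at 5 CPM or more in day 15 ENCCs, and both were at least 2-fold lower in CP1, against 7.82% of all genes lower and 18.8% higher, while the upper limit for HLA-E, 0.727 of the ENCC level, lay short of 2-fold. HLA-C and HLA-B reached 5 CPM in CP1 and not in ENCCs, so their higher values there are not counted. The shares of all genes still include genes that reached 5 CPM in CP1 alone. B2M UMIs per UMI of the 4 heavy chain members came to 0.607 in CP1, 3.57 in ENCCs and 2.34 in NEP.

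ENCCs carried 0.805% of the CP1 level of NEUROD1, a placode marker, but 20.6% of the CP1 level of HLA-C. PSMB8 and PSMB9 had 0 UMIs in every day 15 cell, those that the authors removed included, against 101 and 17 UMIs in the whole day 10 library. The limit of 3 UMIs for a count of 0 is 0.0353 CPM there, and the exact interval of the PSMB8 fold between the libraries began at 32.4-fold lower. No cluster was named NNE at day 15, and in whole libraries fewer cells of a type and less RNA per cell cannot be told apart. TAP1 had 117 UMIs in the whole day 10 library and 14 at day 15. Losses to 0 like that of PSMB8 were not common. Of 13651 genes with at least 50 UMIs in the day 10 library, 34 had 0 at day 15. PSMB9 lay below this limit, and TAP1 did not reach 0.

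**Figure D4:**
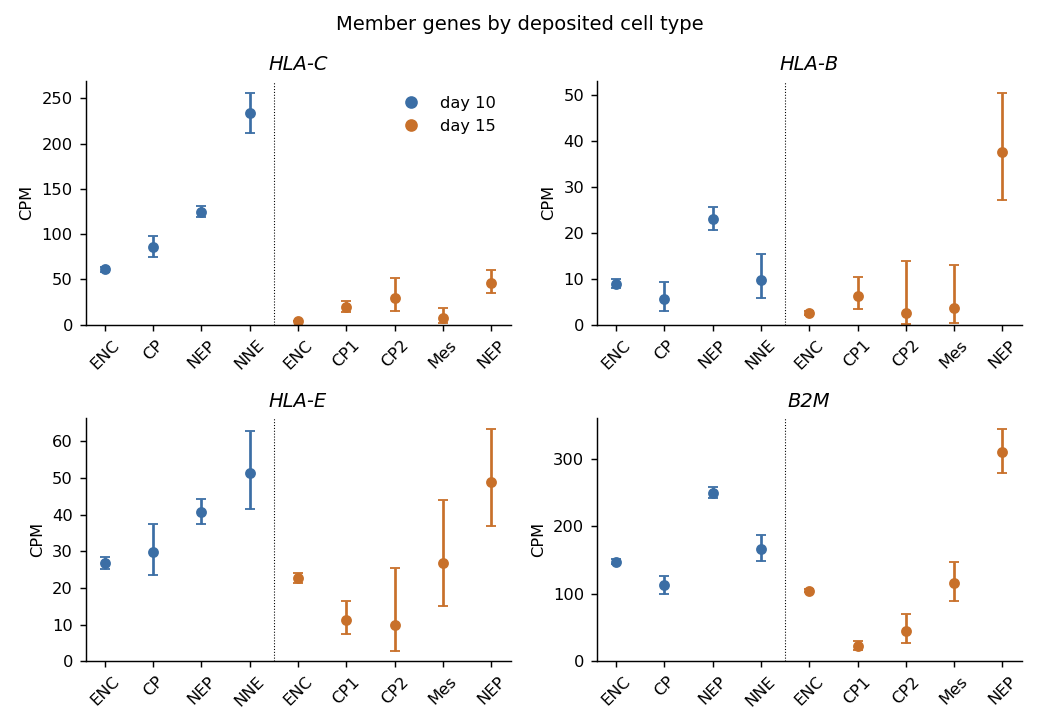
Levels of HLA-C, HLA-B, HLA-E and B2M in CPM in the 4 cell types of day 10 (blue) and the 5 of day 15 (orange), on linear axes from 0. Points are sums over the cells of a type in 1 library and bars exact 95% Poisson intervals. HLA-C is highest in day 10 NNE at 233 and lowest in day 15 ENCCs at 4.05, while B2M is highest in day 15 NEP at 310 and lowest in CP1 at 22.6.

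Among ENCCs, the authors numbered subclusters ENC 1 to ENC 4 at day 10 and ENC 1′ to ENC 4′ at day 15, and left 256 and 27 cells outside them. HLA-C was lowest in ENC 3 at 40.5 CPM (32.6 to 49.7) and highest in ENC 4 at 95.6 (80.0 to 113), with ENC 1 at 57.1 (54.0 to 60.2) and ENC 2 at 54.1 (49.2 to 59.4). The 256 Non-NC cells outside the numbered subclusters had more, with HLA-C at 125 CPM (111 to 141), B2M at 233 (213 to 254) and HLA-B at 24.0 (18.0 to 31.3), each close to its level in day 10 NEP. Of the 5 ENCC markers, 4 were lower in these cells, such as SOX10, at 26.2 CPM against 126 in the numbered subclusters, and ERBB3, at 25.8 against 71.6, while PAX3 was at 74.2 against 64.4. Of the 4 NEP markers, 3 were higher, such as WNT2B, at 649 against 10.7, and PAX6, at 458 against 6.69, while SOX2 was at 17.8 against 21.5. The epithelial marker KRT19 was at 190 CPM against 4.01. Without these cells, HLA-C in day 10 ENCCs was at 56.8 CPM and B2M at 142. All 4 day 15 subclusters had less HLA-C than any day 10 subcluster, from 3.06 CPM (2.43 to 3.79) in ENC 2′ to 5.58 (4.57 to 6.75) in ENC 1′. A single cell held 10 of the 27 HLA-C UMIs of ENC 3′, which was at 3.29 CPM with it and at 2.08 (1.21 to 3.33) without it, the lowest value of the 4, with an interval that overlapped that of ENC 2′.

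HLA-E also differed among the day 15 subclusters. It was at 16.8 CPM (15.3 to 18.4) in ENC 2′ and 21.9 (19.8 to 24.1) in ENC 1′, against 40.1 (35.9 to 44.7) in ENC 3′ and 42.2 (32.5 to 53.9) in ENC 4′. B2M was lowest in ENC 4′ at 66.0 CPM (53.7 to 80.2), which was among the highest for HLA-E, and highest in ENC 3′ at 124 (116 to 132). The day 10 subclusters did not differ in HLA-E beyond their intervals, from 21.7 CPM (14.7 to 31.0) in ENC 4 to 27.1 (23.7 to 31.0) in ENC 2.

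The cell cycle phase that the authors assigned to each cell moved with HLA-E and HLA-C. HLA-E in ENCCs was at 36.4 CPM (33.2 to 39.9) in G1, 21.7 (19.2 to 24.5) in S and 21.9 (19.3 to 24.6) in G2M at day 10, and at 35.2 (32.5 to 38.1), 16.5 (14.9 to 18.3) and 17.8 (15.6 to 20.1) at day 15. In G1 cells alone the 2 stages did not differ in HLA-E beyond counting error, with a log2 ratio of -0.05 (-0.22 to 0.13). HLA-E was lower at day 15 in the other phases, with log2 ratios of -0.39 (-0.62 to -0.16) in S and -0.30 (-0.55 to -0.05) in G2M. HLA-C at day 10 was at 79.6 CPM (74.8 to 84.6) in G1, 54.2 (50.1 to 58.5) in S and 48.3 (44.5 to 52.4) in G2M. B2M went from 158 CPM in G1 to 137 in G2M at day 10, and from 90.7 in G1 to 113 in S and 108 in G2M at day 15, the opposite direction.

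The subclusters differ in phase, with 86.2% of ENC 4′ cells (79.3 to 91.5) in G1 against 28.6% (26.8 to 30.5) of ENC 2′. Within G1, HLA-E was at 22.8 CPM in ENC 2′, 33.2 in ENC 1′, 44.2 in ENC 4′ and 58.0 in ENC 3′. Between ENC 2′ and ENC 3′ it was also at 14.2 and 26.7 CPM in S and at 15.5 and 25.1 in G2M, smaller differences than in G1. The fold of HLA-C between stages was 15.7 (12.6 to 19.7) in G1, 16.6 (13.1 to 21.3) in S and 11.8 (9.02 to 15.7) in G2M. Phases were assigned from the same UMIs, and the part of depth or free RNA in them was not tested.

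**Figure D5:**
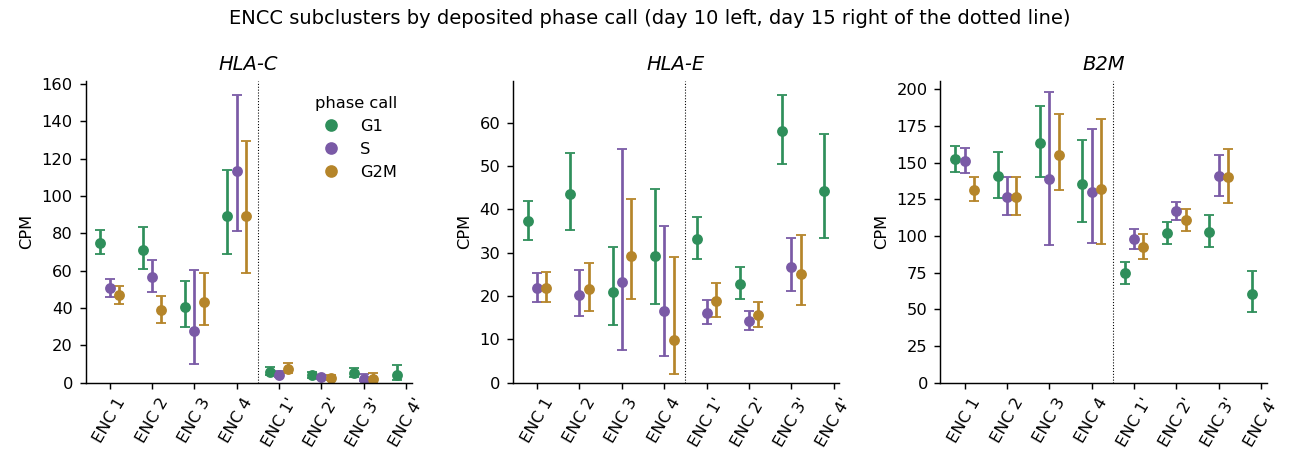
Levels of HLA-C, HLA-E and B2M in CPM in the numbered ENCC subclusters of day 10 (left of the dotted line) and day 15 (right), split by the assigned cell cycle phase (G1 green, S purple, G2M brown). Points are sums over cells, bars exact 95% Poisson intervals, and classes of fewer than 20 cells are left out. HLA-E is highest in G1 in ENC 1, ENC 2, ENC 4 and all plotted day 15 subclusters with more than 1 phase, and reaches 58.0 in G1 cells of ENC 3′.

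The rest of the pathway was described from fixed lists of genes. Of 11 peptide loading genes, 7 reached 5 CPM in ENCCs, and 0 were 2-fold different, with a median log2 ratio of 0.47 against -0.15 for all genes. The endoplasmic reticulum chaperones and the disulfide isomerase PDIA3 were higher at day 15 in value, with CALR at 174 and 223 CPM, CANX at 136 and 204, and PDIA3 at 150 and 186. TAPBP (tapasin), which bridges TAP and the heavy chain, was low at both stages, at 1.76 and 0.752 CPM. These chaperones serve most secreted proteins, and TAPBP was the class I-specific one among those named.

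Of the 14 subunits of the constitutive 20S proteasome, all 14 were testable and 0 were 2-fold different, with a median log2 ratio of -0.11. The constitutive catalytic subunits that PSMB8, PSMB9 and PSMB10 can replace were abundant, with PSMB5 at 400.5 and 271 CPM, PSMB6 at 213 and 149, and PSMB7 at 235 and 192. PSMB10, the remaining immunoproteasome catalytic subunit, was at 1.11 and 2.38 CPM. The 4 testable genes among the proteasome activator and assembly factors likewise included 0 past 2-fold, with a median of 0.30.

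Among 16 regulators of class I transcription, 12 were testable, of which 1 was at least 2-fold lower and 2 higher, with a median log2 ratio of -0.29. The lower one was RFX5, a subunit of the complex that binds the SXY module, at 14.5 and 5.46 CPM, and the higher ones were its partner RFXAP at 6.28 and 13.1 CPM and NFKB1 at 3.52 and 9.49 CPM. These 3 were named after their values were seen. NLRC5, the class I transactivator, had 1 UMI in day 10 ENCCs and 4 in day 15 ENCCs. IRF1, a transcription factor of the interferon response, was at 0.758 and 1.00 CPM.

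Interferon ligands, receptors and signalling genes included 8 testable genes, with 0 past 2-fold and a median of -0.17. Of 30 interferon-stimulated genes, 11 were testable, and 2 were at least 2-fold lower and 3 higher, with a median of -0.11. IFITM2, an antiviral membrane protein, was at 34.3 CPM at day 10 and 124 at day 15, and IFITM3 at 124 and 181. BST2 at 12.6 and 1.33 CPM, IFI27 at 5.01 and 1.68, IFI16 at 3.17 and 18.1 and IFIT3 at 2.22 and 5.37, named after their values were seen, lay on both sides. ISG15, a ubiquitin-like protein among the most strongly induced by interferon, was low at 1.30 and 1.04 CPM, and IFITM1 had 3 and 2 UMIs. The list thus had no common direction.

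Of the class II genes, 3 were testable and 1 was past 2-fold, CD74, the invariant chain, at 19.1 and 3.31 CPM. Along chromosome 6 from HLA-F to TAPBP (29722775 to 33314387, GRCh38), 57 genes that are neither HLA genes nor members were testable. Of these, 6 were at least 2-fold lower, or 10.5% against 7.18% of all genes. At least 2-fold higher was 1 gene, or 1.75% against 9.17% of all genes. The median log2 ratio was -0.43, against -0.15 for all genes.

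Over the 9 cell types of both libraries, the genes whose log2 level was most like that of HLA-C were MAPKAP1 (Pearson r = 0.96), METTL5 (0.96), ZFAND6 (0.95), HTATIP2 (0.95) and the mitochondrial gene MT-CO1 (0.95), among 7603 genes with at least 20 CPM in one type. Those most like B2M were LRRC16A (0.96), RNF141 (0.96), NFYC (0.96), CNPY4 (0.95) and IFITM3 (0.95). Among the members, B2M was most like HLA-E (0.92), while r was 0.40 between HLA-C and B2M and 0.59 between HLA-C and HLA-B. The 9 points share 2 libraries and their depths, and the values are descriptions.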

How the data were processed

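The authors deposited raw UMI counts per gene and cell, whole numbers without normalization, and metadata with the cell type, subcluster and phase of each cell and its percent of mitochondrial and ribosomal UMIs, which the authors computed in Seurat. Libraries were made with the 10x Genomics single-cell 3′ kit. The submitters' processing notes list Cell Ranger, Seurat 4.0.4 and GRCh38, while the study's methods name kallisto and bustools with demultiplexing in Seurat; which of them made the deposited counts, and whether strand was used, is not given in the sources used here. The authors set limits on genes, UMIs and mitochondrial share per cell, and the cells they removed stayed in the count files. No doublet caller was run here beyond those limits.

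For each deposited class, the counts of its cells were added up and scaled to the summed total of those cells (CPM). A gene was compared at 5 CPM or more in one of the classes and called at a 2-fold difference, with counts of 0 set to a floor of 3 UMIs. With 1 library per stage no test was run. Ratios, intervals and calls were tested on simulated Poisson counts, which hold counting error but no variation between cells, repeats or libraries. Scripts used Python 3.11.15, scipy and edgeR 4.0.16 for TMM factors only. Members and gene lists were chosen with earlier results of these data known. From the lists, genes were named that had at least 20 CPM in ENCCs of one stage and a 2-fold difference, or that stood on a fixed list of 15 genes, and the 5 most like HLA-C and the 5 most like B2M were named from log2(CPM + 1). Some genes of the lists are not reported here. Alternatives covered scaling, filters, pseudocounts, the choice of cells and thinning.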

Additional observations from a re-analysis of the deposited data

How the results depend on the processing

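No paired analysis was possible because each stage has 1 library and the groups share a single replicate number. With TMM scaling the median of all genes shifted by 0.20 on the log2 scale, and relative to the median HLA-C was at -3.77 with totals and -3.78 with TMM. TMM gave -0.055 for HLA-E and -0.31 for B2M. A pseudocount of 1 CPM gave -1.49 for HLA-B and -3.62 for HLA-C, and one of 5 CPM gave -0.89 and -2.87, which takes HLA-B out of the 2-fold range. All deposited cells gave -3.65 for HLA-C, -0.59 for HLA-E and -0.89 for B2M, and G1 cells gave -0.048 for HLA-E and -0.80 for B2M. The count of members at least 2-fold lower was 4 of 7 with no filter, where PSMB8 and TAP1 enter with at most 10 UMIs (16.9% of all genes), and 1 of 3 at 20 CPM (5.19%). The share of ENCCs with HLA-C was 32.2% at day 10 and 3.85% at day 15 without thinning, 24.8% and 2.03% at 5000 UMIs, and 2.03% and 0.0405% for at least 2 UMIs. Totals without mitochondrial and ribosomal protein genes gave log2 ratios to ENCCs of 0.61 for B2M in day 10 NEP and 1.76 for HLA-C in NNE, against 0.76 and 1.94. The cause of these moves was not tested. Of 150 alternatives, 49 lay outside the counting interval of the main value or gave another count of members. The sign of a log2 ratio changed in 4 of 111 cases, 3 for TAP2 and 1 for HLA-B in NNE, and in none of those past 2-fold. Depth limits TAP1, TAP2, PSMB8, PSMB9 and HLA-F in ENCCs to counts of 46 UMIs or fewer.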

Other observations

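A single day 15 cell stood out among the ENCCs. This cell of ENC 3′, in G1 with 11969 UMIs, carried 15 UMIs of HLA-B and 10 of HLA-C, against at most 3 of either gene in any other day 15 ENCC. It held 15 of the 27 HLA-B UMIs of ENC 3′ and 15 of the 140 of all day 15 ENCCs. It had 5 UMIs of B2M and 2 of HLA-E, and 0 of the ENCC markers SOX10, FOXD3, ERBB3, TFAP2B and PAX3, and also 0 of PTPRC, KRT19 and EPCAM. Without it, ENC 3′ was at 1.47 CPM of HLA-B (0.758 to 2.56) and 2.08 of HLA-C (1.21 to 3.33), and the log2 ratios between the stages were -1.99 for HLA-B and -3.98 for HLA-C. This cell was looked at after its values were seen.

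The cells that the authors removed had other class I levels than those kept. At day 10 they were at 101 CPM of HLA-C (95.7 to 106), against 84.1 in kept cells. TAP1 was at 3.17 (2.34 to 4.20) against 1.25, and PSMB8 at 2.44 (1.72 to 3.37) against 1.16. HLA-B, HLA-E and B2M were at 1.30, 1.12 and 1.13 times the level of kept cells. At day 15 they were at 10.3 CPM of HLA-C (9.05 to 11.6) against 5.67 in kept cells, and at 5.77 of HLA-B (4.86 to 6.80) against 3.33. B2M was lower in the removed cells, at 72.0 CPM (68.7 to 75.4) against 105, and so was HLA-E, at 18.3 against 22.7. Their cell types are not given in the deposited labels.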
